A study of Rattus norvegicus with 6 samples.

Results

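Potassium channel genes were followed in rat hippocampus after single prolonged stress, abbreviated SPS, which serves in rodents as a model of post-traumatic stress disorder. The genes were all rows of the deposited table whose symbol begins with Kcn, then letters and a digit, with Kcne2 left out. This gave 92 of 22062 rows, under 91 symbols, since Kcnn2 stands on 2 rows. They were sorted into 15 channel families: 29 rows encode pore subunits of voltage-gated channels, 10 encode modifier subunits of those channels, 9 encode pores opened by calcium or sodium, 15 encode inward rectifiers, 14 encode leak channels of the K2P family and 15 encode accessory subunits. The voltage-gated subunit gene Kcnd2 was not analysed here.

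The tissue was the hippocampus of Sprague Dawley rats, with 3 libraries labelled SPS and 3 labelled Control. The SPS rats were held immobile for 2 h, swam for 20 min in water at 24 °C, rested for 15 min and were anaesthetized to loss of consciousness, with the agent not named. The Control rats stayed in their home cages and were not handled. The labels give neither the age nor the sex of the rats, nor the time between stress and dissection. Nothing in them states that the samples came from separate animals. The p-values below therefore reflect the spread among these libraries, which may be technical.

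Potassium channels let potassium ions leave or enter the cell along their gradient and so set the resting potential and the shape and rate of nerve impulses. Voltage-gated (Kv) channels open on depolarisation and end the impulse, SK and Slo channels open on a rise of calcium or sodium inside the cell, inward rectifiers (Kir) hold the membrane near rest, and K2P channels carry the background leak. In the hippocampus Kv1 channels lie mainly in axons, Kv4 channels with their KChIP partners dampen dendrites, Kv3 channels serve fast-spiking interneurons, and Kv7 channels carry the M-current that restrains repeated firing. In glia, Kir channels of the Kcnj10 type take up potassium released by neurons.

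Promoter sequences are shown for 4 genes that carry the patterns described further on: Kcnma1 and Kcna3, with their highest levels in the libraries numbered 3, Kcnmb4, with its lowest levels there, and Kcnj13, with its highest level in SPS replicate 2. They come from RefSeq on the build GRCr8, run from 250 bases before to 50 bases after the gene start, and are printed on the strand of the gene. They lie at chr15:351675-351974 (plus strand), chr2:197320074-197320373 (plus), chr7:54005052-54005351 (minus) and chr9:95518937-95519236 (minus). Capitals mark the GC box GGGCGG, the core of the cAMP response element TGACG and the TATA box TATAAA, each searched on both strands. A run of 10 capitals in the Kcnma1 promoter holds 2 overlapping GC boxes.
Kcnma1: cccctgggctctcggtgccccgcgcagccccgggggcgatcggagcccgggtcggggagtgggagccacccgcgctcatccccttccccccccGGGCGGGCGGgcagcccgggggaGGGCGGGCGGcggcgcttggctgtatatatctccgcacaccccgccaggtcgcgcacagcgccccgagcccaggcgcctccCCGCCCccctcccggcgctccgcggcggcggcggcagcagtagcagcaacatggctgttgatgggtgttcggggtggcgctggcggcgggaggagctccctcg
Kcna3: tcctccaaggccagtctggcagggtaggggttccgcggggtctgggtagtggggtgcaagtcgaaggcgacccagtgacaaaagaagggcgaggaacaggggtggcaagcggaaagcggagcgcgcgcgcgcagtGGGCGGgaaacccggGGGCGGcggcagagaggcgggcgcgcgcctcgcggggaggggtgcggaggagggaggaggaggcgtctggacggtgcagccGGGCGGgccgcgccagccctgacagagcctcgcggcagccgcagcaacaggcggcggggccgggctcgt
Kcnmb4: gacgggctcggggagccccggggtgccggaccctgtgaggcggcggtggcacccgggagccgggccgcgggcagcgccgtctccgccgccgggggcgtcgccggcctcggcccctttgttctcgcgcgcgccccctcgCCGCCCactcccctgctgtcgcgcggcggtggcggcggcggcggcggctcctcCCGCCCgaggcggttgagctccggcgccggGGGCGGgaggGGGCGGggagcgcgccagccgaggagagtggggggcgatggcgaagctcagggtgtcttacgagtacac
Kcnj13: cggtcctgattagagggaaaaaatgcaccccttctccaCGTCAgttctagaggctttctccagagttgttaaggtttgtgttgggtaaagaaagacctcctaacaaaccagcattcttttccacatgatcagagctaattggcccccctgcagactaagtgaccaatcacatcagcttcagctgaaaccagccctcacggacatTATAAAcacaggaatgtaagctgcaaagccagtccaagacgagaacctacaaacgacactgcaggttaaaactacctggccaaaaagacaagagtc
The first 3 are rich in CG and held 5, 3 and 4 GC boxes, with 38, 36 and 48 CpG dinucleotides. The Kcnj13 promoter held no GC box, 1 response element core, 1 TATA box and 5 CpG dinucleotides. Of the 91 symbols, 62 had a promoter in the table. A GC box stood in 31 of those 62 and in 33.1% of all 33469 promoters of the same length. A TATA box stood in 3.23% and 14.2%, and the response element core in 21.0% and 21.2%. Letters in a window describe the sequence and do not show that a factor binds.

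Read depth was 11148531, 4081184 and 5768628 reads in SPS replicates 1 to 3 and 11838770, 5321132 and 4786503 reads in Control replicates 1 to 3. Reads of potassium channel genes made up 0.326%, 0.237% and 0.528% of these in SPS and 0.281%, 0.295% and 0.524% in Control. Levels are given as CPM, reads per 1000000 after normalisation between libraries, in the order of replicates 1, 2 and 3. Where genes are set against each other they are given as FPKM, which also scales for transcript length. All fold changes are log2 values of SPS over Control with their standard error (SE), from edgeR's quasi-likelihood test unless another is named.

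SPS 2 stood apart from the other libraries. A list of 12 choroid plexus markers, genes of the tissue that makes cerebrospinal fluid, summed to 36.0, 34185 and 43.8 CPM in SPS and 22.4, 43.5 and 157 CPM in Control. One of the 12, Otx2, was at 0 reads in every library. The sum of 12 oligodendrocyte genes, markers of the myelin-forming cells, was 15917, 30953 and 13356 CPM in SPS and 13304, 8774 and 10228 CPM in Control. The 10 general neuron genes, which mark neurons without telling brain regions apart, summed to 8783, 3857 and 9817 CPM in SPS and 8369, 6913 and 10756 CPM in Control. SPS 2 was thus the highest library for the first 2 lists and the lowest for the third. In bulk tissue, fewer cells of a type and less RNA per cell cannot be told apart. The part of these shifts in any difference below was not tested, and genes whose direction changed without SPS 2 are given below.

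Of the 92 rows, 7 had 0 reads in all 6 libraries: Kcnmb3, Kcne1, Kcnj15, Kcnj1, Kcnk6, Kcnk18 and Kcna10. Another 15 had between 3 and 85 reads over the 6 libraries and did not pass the expression filter, among them Kcne4 with 21, Kcnn4 with 26 and the other Kcnn2 row with 70. The spans of 8 rows overlap that of another gene in the table, among them Kcnab2, Kcnh3, Kcnmb4, Kcna3 and Kcnk9, and reads there may be shared. The remaining 70 were tested within a fit over 12441 genes. Of the 70, 35 had a mean of at least 10 FPKM. The highest mean over the 6 libraries belonged to Kcnab2, an accessory subunit of Kv1 channels, at 231 FPKM. Kcnab1 followed at 54.3 FPKM, and further high levels were those of Kcnmb4 at 43.9, Kcnj3 at 40.7 and Kcna1 at 38.9 FPKM. Genes of axonal and G-protein-gated channels thus stood beside accessory subunits near the top.

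**Figure D1:**
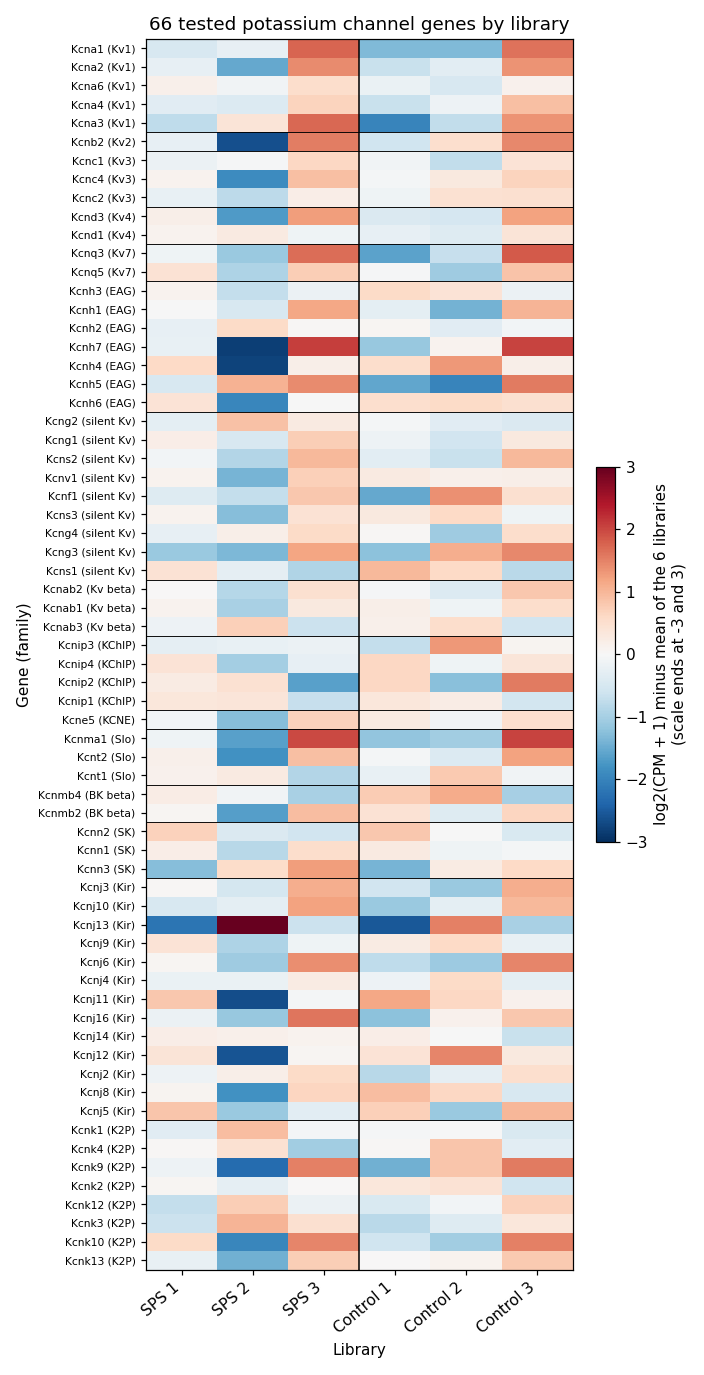
Level of 66 of the 70 tested potassium channel genes (rows, grouped by family) in the 3 SPS and 3 Control libraries (columns), as log2(CPM + 1) minus the mean of the gene over the 6 libraries. Red is above and blue below that mean. The columns SPS 3 and Control 3 are mostly red, and SPS 2 holds the lowest level of 32 of the 70 genes.

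No potassium channel gene passed the test between SPS and Control. With edgeR, 0 of 70 passed an adjusted p of 0.05, against 0 of all 12441 genes (0%), and every adjusted p of a potassium channel gene was 1.00 after rounding. At an unadjusted p under 0.05 the count was also 0 of 70, where 42 of all genes (0.338%) passed. DESeq2 called 0 and had 1 potassium channel gene at an unadjusted p under 0.05. With limma on FPKM both counts were 0. Over the 70 genes the log2 fold changes had a median of -0.06, against -0.02 for all genes tested, and 32 were positive and 38 negative. That median was 0.19 without SPS replicate 2 and 0.29 without Control replicate 3, so its sign hung on single libraries. Without SPS replicate 3 it was -0.45 and 15 of 70 were positive. The median SE of the 70 was 0.68, larger than the median size of their log2 fold changes, 0.32.

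An estimated difference of 2-fold or more was seen in 3 of 70 genes (4.29%, against 6.37% of all genes tested), on the log2 scale: Kcnj13 at 3.28 ± 2.24, Kcnj12 at -1.23 ± 1.21 and Kcng3 at -1.04 with a larger SE. Kcnj13 is described with the inward rectifiers below. The silent Kv subunit gene Kcng3, outside the rule for named genes and named for its size, had 0.181, 0 and 4.85 CPM in the SPS libraries and 0.0875, 4.44 and 5.94 CPM in the Control libraries. Each of the 3 had at least 1 library at 0 reads, where the fitted fold change depends on the tool's prior count.

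**Figure D2:**
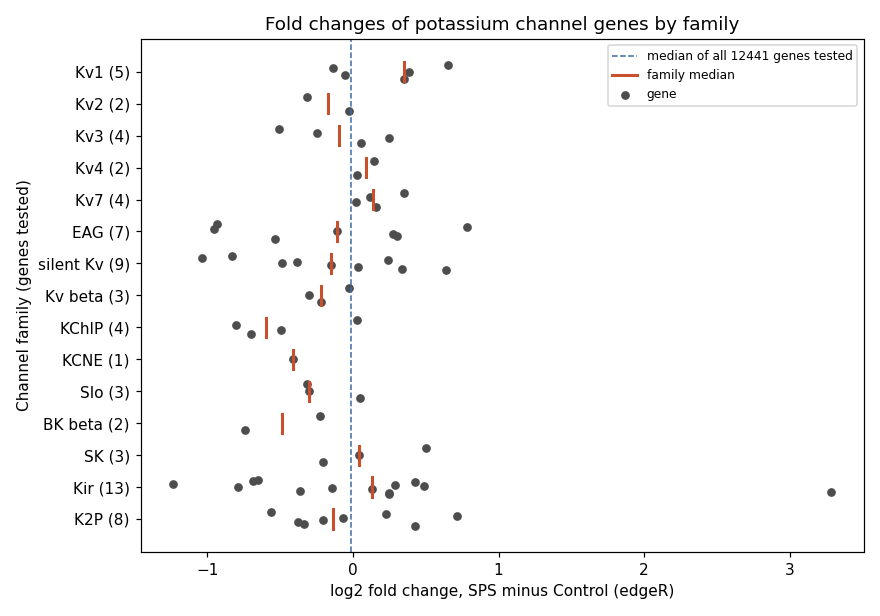
Log2 fold change of each tested potassium channel gene, SPS minus Control (horizontal axis, points), by family (vertical axis, number tested in brackets). Red bars are family medians, between -0.59 for KChIP and 0.35 for Kv1, and the dashed line is the median of all genes at -0.02. Kcnj13 lies alone at 3.28.

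Among voltage-gated pore genes, 14 of 24 were positive and the median was 0.04. The 5 tested Kv1 genes, encoding low-threshold axonal channels, had a median of 0.35, the highest of the 15 families. Of these, 3 of 5 were positive. Kcna1, the episodic ataxia gene (chromosome 4, 159190803 to 159192526 as the table gives it, build not stated), had 32.8, 38.9 and 159 CPM in the SPS libraries and 17.9, 17.7 and 145 CPM in the Control libraries. Each SPS library was above the Control library of the same number, while the libraries numbered 3 of both groups were far above all others, so the groups overlapped. The log2 fold change was 0.35 ± 0.97. Kcna3, best known from lymphocytes and microglia as well as axons, had 6.35, 15.5 and 40.2 CPM in the SPS libraries and 2.19, 6.57 and 31.0 CPM in the Control libraries, again with each SPS library above its Control partner and number 3 highest in both groups, and a log2 fold change of 0.65 ± 1.03. Kcna6 was the most even of them, at 116, 96.3 and 150.0 CPM in the SPS libraries and 90.1, 74.2 and 114 CPM in the Control libraries. The groups overlapped, since Control 3 was above SPS 2. Kcna6 lies near Kcna1 and Kcna5 on chromosome 4, the last of which had 44 reads in all and was not tested. In Kcna6 the SPS level was above the Control level in each pair by nearly the same amount (0.37, 0.38 and 0.40 on the log2 CPM scale for pairs 1 to 3), with a log2 fold change of 0.38 ± 0.34 and an unadjusted p of 0.293. Kcna2, the main partner of Kcna1 in axons, had 219, 89.6 and 699 CPM in the SPS libraries and 164, 209.9 and 672 CPM in the Control libraries. It was positive in pairs 1 and 3 and negative in pair 2, and its log2 fold change was -0.05 ± 0.82. Kcna4, which encodes an inactivating Kv1 subunit, had a log2 fold change of -0.14 ± 0.54.

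Kv2 channels carry the delayed rectifier current of neuronal cell bodies. Kcnb2 had 4.26, 0 and 17.2 CPM in the SPS libraries and 3.15, 7.81 and 16.1 CPM in the Control libraries, and its log2 fold change was -0.32 ± 1.36. SPS 2 was the lowest library and held no read at all, and the groups overlapped.

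Kv3 channels allow fast-spiking neurons to fire at high rates. Kcnc1 had 91.9, 101 and 159.5 CPM in the SPS libraries and 96.3, 61.8 and 139 CPM in the Control libraries, with a log2 fold change of 0.25 ± 0.42. The groups overlapped, and Control 2 was the lowest library. Kcnc2 had 42.0, 28.5 and 57.1 CPM in the SPS libraries and 44.8, 68.1 and 69.1 CPM in the Control libraries, so that only SPS 3 reached the Control range. It was lower in SPS in every pair (-0.09, -1.25 and -0.27), with a log2 fold change of -0.51 ± 0.39 and an unadjusted p of 0.224. Kcnc4, with a log2 fold change of -0.24 ± 0.65, was at its lowest in SPS 2. Kv4 genes, which encode channels of the A-type current of dendrites, included Kcnd3 at 81.1, 21.5 and 173 CPM in SPS, against 52.8, 50.2 and 167 CPM in Control (log2 fold change 0.03 ± 0.78) and Kcnd1 at 17.0, 19.2 and 14.2 CPM in SPS, against 13.0, 11.7 and 20.9 CPM in Control (0.14 ± 0.45). Kcnd3 ranged widely with the library number while Kcnd1 stayed within a narrow band.

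Kv7 genes encode the M-channel. Kcnq3, an M-channel subunit gene linked to neonatal epilepsy, had 47.1, 23.4 and 169 CPM in the SPS libraries and 16.5, 31.8 and 188 CPM in the Control libraries. The libraries numbered 3 were the highest and SPS 1 was above Control 1, while SPS 2 was below Control 2. Its log2 fold change of 0.02 ± 1.02 was small beside its error. Kcnq5, a further M-channel subunit, had a log2 fold change of 0.12 ± 0.60. All 4 tested Kv7 genes were positive, with a median of 0.14.

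The EAG family contains the ether-a-go-go, ERG and ELK channels. Kcnh3, an ELK channel of forebrain neurons, had 96.3, 53.5 and 78.1 CPM in the SPS libraries and 132, 119 and 79.0 CPM in the Control libraries. Pairs 1 and 2 were lower in SPS and pair 3 was level (-0.46, -1.15 and -0.02), and the groups overlapped only because SPS 1 was above Control 3. The log2 fold change was -0.53 ± 0.37 with an unadjusted p of 0.191. Kcnh1, the founding EAG channel, had 53.4, 38.2 and 121 CPM in the SPS libraries and 43.3, 19.3 and 110.2 CPM in the Control libraries, and Kcnh2, the ERG channel known from the heart, had 27.7, 49.8 and 33.6 CPM in the SPS libraries and 34.3, 26.1 and 31.2 CPM in the Control libraries. Their log2 fold changes were 0.30 ± 0.69 and 0.27 ± 0.38, and the groups overlapped in both.

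Kcnh6, another ERG channel gene, was the 1 gene of the 70 whose groups did not overlap. It had 4.17, 0 and 2.87 CPM in the SPS libraries and 4.55, 4.79 and 4.40 CPM in the Control libraries. All 3 SPS libraries were thus below all 3 Control libraries, though SPS 1 only narrowly and SPS 2 at no read, where 3 reads would be 0.694 CPM. The log2 fold change was -0.93 ± 1.22, far from the threshold. Among all genes tested, 1.40% lay fully lower in SPS, against 1.43% here, and 1.54% lay fully higher, against 0 of 70. The share fully lower was near that of all genes. Of the remaining EAG genes, Kcnh7 had a log2 fold change of -0.11 ± 1.26, Kcnh4 -0.95 ± 1.21 and Kcnh5 0.78 ± 1.61, with errors above 1 because their counts differed widely between libraries.

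Silent Kv subunits form no channel alone and modify Kv2 channels. Of the 9 tested, 4 were positive and the median was -0.15. Kcng2 had 27.6, 63.4 and 41.3 CPM in the SPS libraries and 32.6, 27.0 and 25.1 CPM in the Control libraries, so SPS 2 and SPS 3 were above every Control library and SPS 1 was not. Its unadjusted p of 0.160 was the smallest of the 70, with a log2 fold change of 0.64 ± 0.41. Kcng1 had 49.7, 30.6 and 72.6 CPM in the SPS libraries and 39.0, 28.6 and 53.5 CPM in the Control libraries, above its Control partner in each pair, with a log2 fold change of 0.34 ± 0.44. The other 7 lay between -1.04 (Kcng3) and 0.24 (Kcng4).

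Of the 10 accessory subunit genes tested, 1 was positive, against 47.9% of all genes tested, their median was -0.36 and none passed the test. Kv beta subunits bind the inner face of Kv1 channels. Kcnab2 had 341, 185 and 473 CPM in the SPS libraries and 326, 252 and 588 CPM in the Control libraries, and Kcnab1, whose product also speeds Kv1 inactivation, had 206, 97.7 and 236 CPM in the SPS libraries and 216, 174 and 276 CPM in the Control libraries. In both genes SPS 2 was the lowest library and Control 3 the highest. Their log2 fold changes were -0.22 ± 0.48 and -0.30 ± 0.42. The KChIP proteins are calcium sensors that bring Kv4 channels to the membrane. Kcnip4 (chromosome 14, 66598258 to 66749178 as the table gives it) had 84.1, 30.8 and 52.8 CPM in the SPS libraries and 96.8, 57.7 and 81.6 CPM in the Control libraries, lower in SPS in each pair, with overlapping groups and a log2 fold change of -0.49 ± 0.44. Kcnip3, whose product also represses transcription under the name DREAM, had 45.5, 47.2 and 48.9 CPM in the SPS libraries and 33.3, 138 and 58.5 CPM in the Control libraries. SPS levels of Kcnip3 were nearly equal, and Control 2 was far above the other 5 libraries: the log2 fold change of -0.70 ± 0.52 became 0.04 without that library. Kcnip2 was the most uneven gene of the family, at 19.4, 22.5 and 4.49 CPM in the SPS libraries and 25.1, 6.21 and 49.7 CPM in the Control libraries. Its high and low libraries followed neither the group nor the number, and its log2 fold change was -0.80 ± 0.84. Kcnip1, whose span in the table is the same as that of Kcnmb1, had a log2 fold change of 0.03 ± 0.51. Kcne5, the single KCNE subunit gene tested, had 1.27, 0 and 2.87 CPM in the SPS libraries and 1.93, 1.24 and 2.42 CPM in the Control libraries and a log2 fold change of -0.41 ± 1.33. Kcne4 was detected only in SPS 1 and Control 1.

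Slo channels are opened by calcium or sodium. Kcnma1 (chromosome 15, 344359 to 1047956 as the table gives it), the pore of the large-conductance BK channel, had 64.3, 22.2 and 281 CPM in the SPS libraries and 30.9, 33.7 and 292 CPM in the Control libraries. The libraries numbered 3 were far above the others in both groups, and the group means were almost the same, at 123 ± 139 CPM in SPS and 119 ± 150.1 CPM in Control (SD, 3 libraries each). The log2 fold change was 0.05 ± 1.12, and 1.90 without Control replicate 3. Kcnmb4, the neuronal beta subunit of BK, ran the other way, with 49.5, 39.4 and 20.8 CPM in the SPS libraries and 71.6, 91.6 and 20.5 CPM in the Control libraries. Here the libraries numbered 3 were the lowest of each group and nearly equal to each other. The log2 fold change of Kcnmb4 was -0.74 ± 0.59, with an unadjusted p of 0.248. Kcnmb2, an inactivating beta subunit, had 2.27, 0 and 5.03 CPM in SPS, against 3.24, 1.42 and 3.96 CPM in Control, and its log2 fold change was -0.23 ± 1.32. The sodium-activated channel genes Kcnt2 and Kcnt1 had log2 fold changes of -0.30 ± 0.72 and -0.32 ± 0.47. Kcnt2 was lowest in SPS 2, at 53.3, 13.0 and 90.7 CPM in SPS, against 45.9, 36.0 and 112 CPM in Control.

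SK channels open on calcium entry and contribute to the hyperpolarisation that follows an impulse. Kcnn2 had 28.0, 12.3 and 11.1 CPM in the SPS libraries and 30.5, 16.9 and 12.1 CPM in the Control libraries, lower in SPS by a small amount in each pair, with a log2 fold change of -0.21 ± 0.57. Kcnn1 had 20.9, 9.72 and 26.6 CPM in the SPS libraries and 21.8, 16.3 and 17.4 CPM in the Control libraries, with a log2 fold change of 0.04 ± 0.49. Groups overlapped in both. Kcnn3 was above its Control partner in each pair and had a log2 fold change of 0.50 ± 0.84. Kcnn4, the intermediate-conductance channel of blood cells and microglia, reached at most 1.60 CPM, in Control 2, and was not tested.

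Inward rectifiers were balanced, with 7 of 13 positive and a median of 0.13. The G-protein-gated channels of this family answer to inhibitory transmitters. Kcnj3 had 65.6, 44.4 and 137 CPM in the SPS libraries and 42.6, 29.3 and 136 CPM in the Control libraries, with SPS above Control in each pair, although the third was level, and a log2 fold change of 0.25 ± 0.67. Kcnj6 and Kcnj9, which assemble with it, had log2 fold changes of 0.13 ± 0.85 and -0.36 ± 0.44. Kcnj10, the glial channel that buffers potassium, had 30.6, 34.7 and 100.2 CPM in the SPS libraries and 19.5, 35.1 and 85.4 CPM in the Control libraries and a log2 fold change of 0.24 ± 0.67. It was high in both libraries numbered 3, where the sum of 9 astrocyte markers was also highest (2432, 2823 and 4581 CPM in SPS, 2586, 2724 and 4502 CPM in Control). The 9 did not move as a set: 4, among them Aqp4, were above the other libraries in both numbered 3, and 1, Aldh1l1, was below. Gfap was highest in SPS 2. Kcnj16, which assembles with Kcnj10, had 5.44, 2.31 and 21.4 CPM in SPS, against 2.10, 6.92 and 11.9 CPM in Control, and a log2 fold change of 0.49 ± 0.98. Kcnj11, the pore of the ATP-sensitive channel of neurons, had 37.9, 2.55 and 20.5 CPM in the SPS libraries and 48.9, 33.4 and 23.5 CPM in the Control libraries. SPS was lower in each pair, by much the most in pair 2 (-0.37, -3.57 and -0.20), and the log2 fold change was -0.79 ± 0.82. Kcnj8, the ATP-sensitive channel of mural cells of vessels, had 2.72, 0 and 4.49 CPM in SPS, against 5.69, 4.44 and 1.54 CPM in Control, and a log2 fold change of -0.69 ± 1.30. The strong inward rectifiers, which pass little outward current, are Kcnj2, Kcnj4, Kcnj12 and Kcnj14. Kcnj4 had 43.1, 43.3 and 58.7 CPM in the SPS libraries and 44.8, 74.9 and 40.5 CPM in the Control libraries, nearly even apart from Control 2, with a log2 fold change of -0.14 ± 0.37. Kcnj14 averaged 4.17 ± 0.356 FPKM in SPS and 3.37 ± 1.18 FPKM in Control (SD, 3 libraries each), with a log2 fold change of 0.29 ± 0.51. Kcnj2 was above its Control partner in each SPS library and had a log2 fold change of 0.42 ± 0.89. Kcnj12 had 6.80, 0 and 5.21 CPM in the SPS libraries and 6.92, 15.4 and 6.38 CPM in the Control libraries, and a log2 fold change of -1.23 ± 1.21, with SPS 2 at no read and Control 2 the highest.

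Kcnj13, a channel of the choroid plexus and of the pigment epithelium of the eye (chromosome 9, 94425251 to 94525152 as the table gives it), had 0.272, 166 and 2.69 CPM in the SPS libraries and 0, 15.4 and 1.98 CPM in the Control libraries. SPS 2 was far above the next library, Control 2, and the other 4 libraries were below 3 CPM. SPS was above Control in each pair (0.97, 3.40 and 0.40). Pair 1 rested on 3 reads in SPS 1 against 0 in Control 1, where the difference depends on the prior count. Pair 3 rested on 15 reads against 9. The log2 fold change was 3.28 ± 2.24 with an unadjusted p of 0.183, and it was -2.00 without SPS replicate 2. SPS 2 was also the library with choroid plexus markers at 34185 CPM, whereas Control 2, at 43.5 CPM, had no such excess. The part of choroid plexus RNA in the Kcnj13 level was not tested.

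K2P channels set the resting leak. Of 8 tested, 3 were positive and the median was -0.14. Kcnk1, found in neurons and astrocytes, had 39.5, 96.3 and 48.1 CPM in the SPS libraries and 49.3, 50.6 and 36.5 CPM in the Control libraries. SPS 2 was the highest library and the other 5 lay close together, and the log2 fold change was 0.43 ± 0.42. Kcnk3, an acid-sensitive channel, had 5.72, 20.1 and 13.5 CPM in the SPS libraries and 4.99, 6.92 and 12.1 CPM in the Control libraries and a log2 fold change of 0.71 ± 0.66, again highest in SPS 2. Kcnk9, a close relative of Kcnk3, had 6.53, 0.694 and 23.0 CPM in SPS, against 2.10, 13.8 and 23.5 CPM in Control, high in number 3 of both groups and nearly absent in SPS 2, with a log2 fold change of -0.38 ± 1.19. Kcnk4, Kcnk2 and Kcnk13 had log2 fold changes of -0.34 ± 0.58, -0.20 ± 0.46 and a log2 fold change of -0.56 ± 1.33. The first 2 are opened by stretch and warmth, and Kcnk13 is known in mice as the main potassium channel of resting microglia. Kcnk13 had 1.36, 0 and 3.59 CPM in SPS, against 1.75, 1.95 and 3.74 CPM in Control, while the sum of 9 microglial markers lay between 230 and 375 CPM in SPS and between 237 and 399 CPM in Control.

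**Figure D3:**
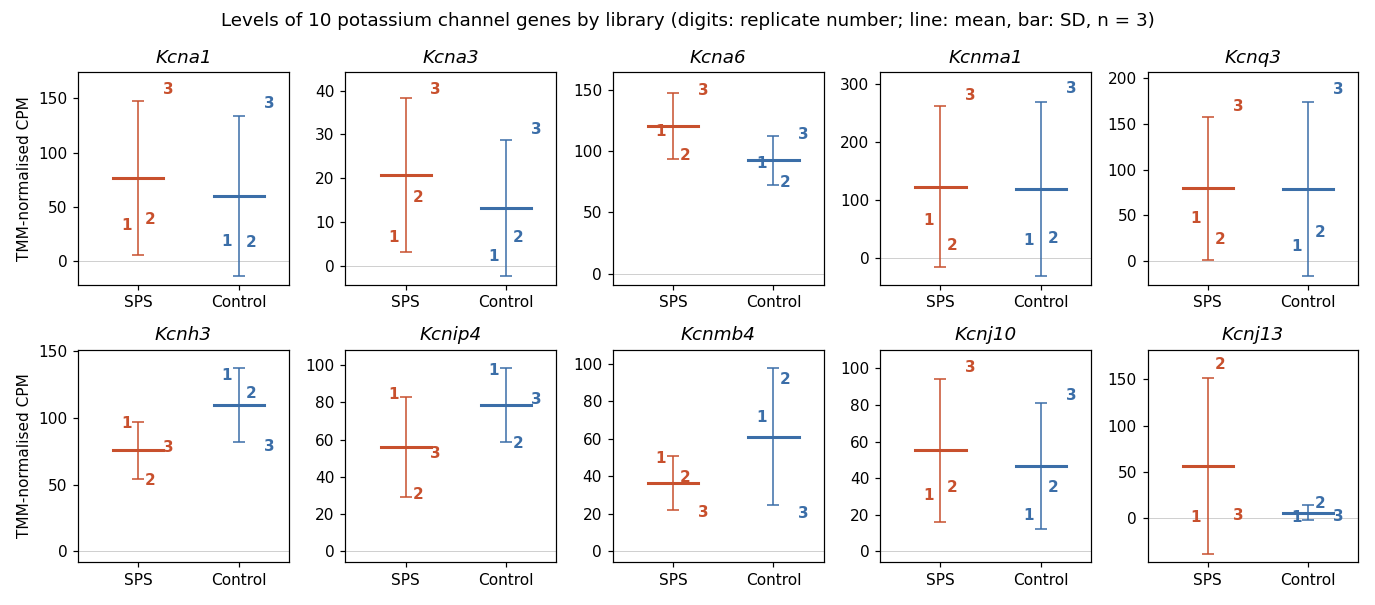
CPM of 10 potassium channel genes in the SPS libraries (left, red) and the Control libraries (right, blue). Digits are replicate numbers, horizontal lines are means and vertical bars are SD over 3 libraries. Kcna1, Kcna3, Kcnma1, Kcnq3 and Kcnj10 are highest in number 3 of both groups, Kcnmb4 is lowest there, and Kcnj13 is highest in SPS 2.

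The libraries carry numbers 1 to 3 in each group, and deviations from the group mean correlated between libraries of the same number. In log2 CPM itself, numbers 1 and 3 correlated best with their own number, at 0.974 and 0.957. Number 2 did not: SPS 2 and Control 2 correlated at 0.772, against 0.777 for SPS 2 with Control 1 and 0.874 for SPS 1 with Control 2. Differences within pairs were therefore examined on the log2 CPM scale. The median over the 70 genes was 0.14 in pair 1, -0.57 in pair 2 and 0.03 in pair 3, against 0.01, -0.10 and 0.00 for all genes tested. There were 41, 25 and 39 genes higher in SPS in pairs 1 to 3. The differences ranged between -0.99 and 1.73 in pair 1, between -5.85 and 4.72 in pair 2 and between -3.39 and 1.39 in pair 3. Pair 2 had the widest range.

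Genes higher in SPS in all 3 pairs numbered 11 of 70 (15.7%, against 11.6% of all genes tested): Kcna1, Kcna3 and Kcna6 of Kv1, Kcnh1, the silent subunit Kcng1, Kcnn3 of SK, the inward rectifiers Kcnj2, Kcnj3, Kcnj13 and Kcnj14, and the leak channel Kcnk3. Genes lower in SPS in all 3 numbered 10 of 70 (14.3%, against 13.2%): Kcnab1 and Kcnip4 of the accessory subunits, Kcnc2, Kcnh3, Kcnh6, the silent subunit Kcns1, Kcnn2, Kcnj11 and Kcnj12, and Kcnk13. Both shares were close to those of the whole table. Kcnj13 is counted in the first group although its pair 1 held 3 reads against 0. Of the 5 tested Kv1 genes 3 were in the first group and none in the second.

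With the replicate number as a block, edgeR again called 0 of 70 and 0 of all genes, and the smallest adjusted p of a potassium channel gene was 0.967. Unadjusted p-values under 0.05 were found for 4 of 70 (5.71%), against 172 of all genes (1.38%). Of the 4, 3 were higher in SPS: Kcna1, with a log2 fold change of 0.69 ± 0.26 and p of 0.0382, Kcna3, with 1.03 ± 0.39 and 0.0406, and Kcnj13, with 2.41 ± 0.76 and 0.0208. Kcnip4 was lower, with -0.57 ± 0.22 and 0.0423. Outside the libraries numbered 2, Kcnj13 had at most 15 reads, in SPS 3. The median SE over the 70 was 0.39 with the block. Pairwise differences were 0.86, 1.12 and 0.12 for Kcna1, 1.42, 1.21 and 0.37 for Kcna3 and -0.20, -0.90 and -0.63 for Kcnip4. For both Kv1 genes the first 2 pairs gave most of the difference.

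**Figure D4:**
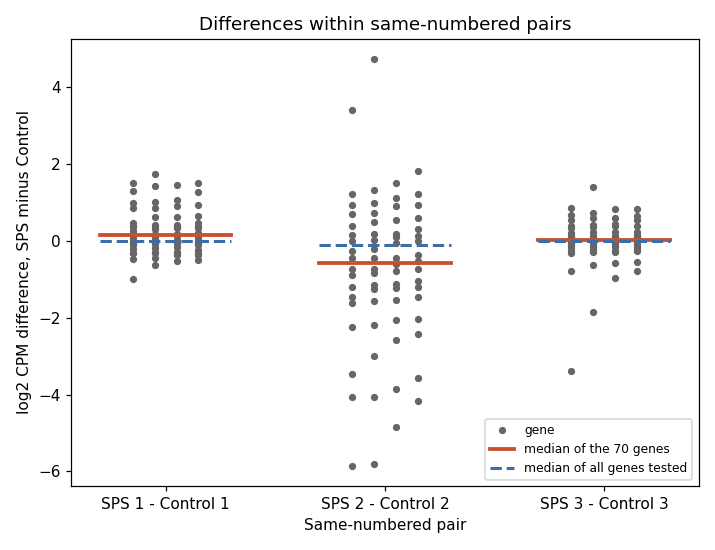
Log2 CPM difference, SPS minus Control, within each same-numbered pair for the 70 tested potassium channel genes (points; their sideways position has no meaning). Red lines are the medians of the 70 genes (0.14, -0.57 and 0.03) and dashed blue lines those of all genes tested (0.01, -0.10 and 0.00). Pair 2 has the widest range.

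The libraries numbered 3, SPS 3 and Control 3, were also set against the other 4. Over the 70 genes the median size of the difference in mean log2 CPM between number 3 and the rest was 0.98. The median size of the SPS to Control log2 fold change from edgeR was 0.32. For all genes tested these were 0.73 and 0.23. The 2 measures are unlike: for Kcna1 the edgeR value was 0.35, while its pair differences in log2 CPM were 0.86, 1.12 and 0.12. The number 3 contrast was not among the planned comparisons, and the same contrast was not computed for numbers 1 and 2. Both libraries numbered 3 were above all other 4 in 34 of 70 potassium channel genes (48.6%, against 27.0% of all genes) and below them in 6 (8.57%, against 23.6%). The median log2 difference was 0.74 for potassium channel genes and 0.04 for all genes. Voltage-gated pore genes were most often on the high side, with 15 of 24 above and 0 below. The accessory class had 4 of 10 above and 3 below.

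The largest differences of number 3 over the other libraries were 9.64-fold for Kcnh7, 8.14-fold for Kcnma1, 6.41-fold for Kcnq3, 6.09-fold for Kcnk9, 5.96-fold for Kcna1 and 5.49-fold for Kcna3, among genes with no library at 0 reads. They encode an ERG channel, the BK pore, an M-channel subunit, an acid-sensitive leak channel and 2 axonal Kv1 subunits. The 6 genes low in number 3 were Kcnmb4, Kcnip1, Kcnab3, Kcnn2, Kcnk4 and Kcns1. Thus the BK pore and its neuronal beta subunit stood on opposite sides. Their transcripts also differed in length, as given below.

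Other measures also moved with the number. The summed level of 7 dentate granule neuron markers was 309.7, 200 and 738 CPM in SPS and 261, 172 and 729 CPM in Control. Of these, Prox1, a transcription factor of granule cells, had 100.3, 66.4 and 437 CPM in SPS, against 72.3, 5.68 and 419 CPM in Control. Prox1 thus made up most of the sum in number 3. Of the 5 markers tested, 3 were above the other 4 libraries in both numbered 3, while Calb1 was highest in Control 2, at 126 CPM. The 8 CA field markers summed to 831, 708 and 573 CPM in SPS and 1260, 1077 and 681 CPM in Control. Wfs1 made up most of each sum. Of the 5 CA field markers tested, 1 (Grik4) was above in both libraries numbered 3 and 1 (Bok) was below. Mitochondrially encoded genes took 13.2%, 8.95% and 5.25% of reads in SPS and 15.6%, 11.2% and 5.94% in Control. Genes with long transcripts were also higher in number 3. Length here was a relative value derived from the deposited counts over FPKM, not an annotated length. Across all 12441 genes Spearman's rho between this length and the number 3 difference was 0.49. Over the 70 potassium channel genes it was 0.12. Genes share the same 6 libraries and are not independent points. With all genes cut by length into 4 bins of equal size, 8.71% of the shortest bin and 53.4% of the longest were above in number 3. Below in number 3 were 47.6% of the shortest bin and 4.31% of the longest. Of the potassium channel genes in these bins, from short to long, 42.9% of 7, 47.8% of 23, 52.4% of 21 and 47.4% of 19 were above. The shares below were 42.9%, 8.70%, 4.76% and 0%. Kcnmb4 fell in the shortest bin and Kcnma1 in the longest. The part of length, of subfield makeup and of mitochondrial RNA in the number 3 pattern was not tested. Of genes with a promoter, a GC box stood in 62.5% of the 24 that were high in number 3 and in 47.8% of the other 23 tested, with medians of 22.5 and 12 CpG dinucleotides. The response element core stood in 8.33% and 26.1%, and the TATA box in 0% and 4.35%. The 2 sets were formed from the levels themselves, and no share for all genes high in number 3 was computed.

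**Figure D5:**
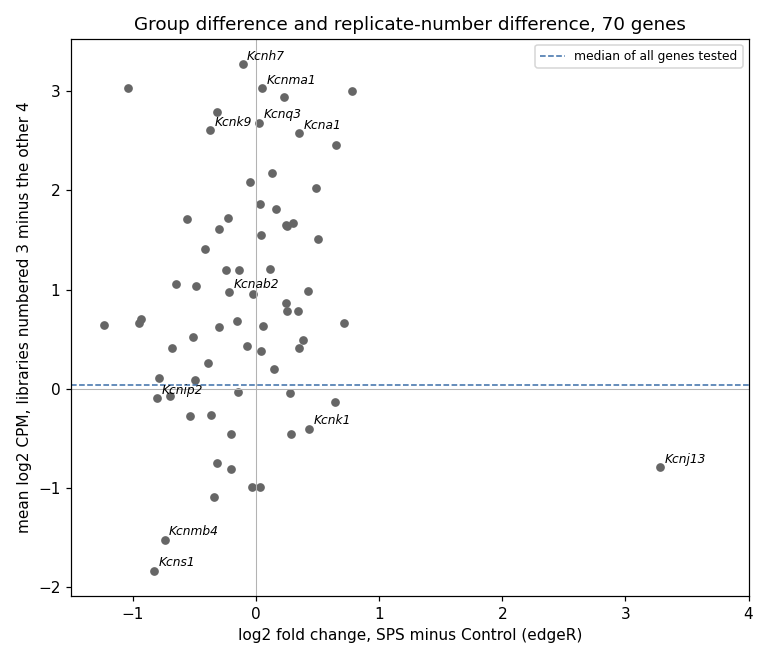
For each of the 70 tested potassium channel genes, the log2 fold change of SPS over Control (horizontal axis) against the mean log2 CPM of the libraries numbered 3 minus that of the other 4 (vertical axis). The points spread further upward than sideways, with a median height of 0.74 against 0.04 for all genes (dashed line). Kcnh7, Kcnma1 and Kcnq3 are near the top, Kcns1 and Kcnmb4 at the bottom, and Kcnj13 at the right.

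SPS 2 was the lowest of the 6 libraries in 32 of 70 genes (45.7%, against 33.2% of all genes) and the highest in 8 (11.4%, against 25.4%). The 8 were Kcnip1, Kcnab3, Kcnj13, Kcnk1, Kcnk12, Kcnk3, Kcng2 and Kcnh2. Of the 70, 11 had no read in SPS 2 (15.7%, against 7.94% of all genes tested): Kcnmb2, Kcne5, Kcnj12, Kcnj8, Kcnj5, Kcnk10, Kcnk13, Kcng3, Kcnh4, Kcnh6 and Kcnb2. Control 1 lacked reads in 1 of the 70 and Control 2 in 2. SPS 2 was also the library of least depth, where a count of 0 allows up to 0.694 CPM, and of the lowest neuron marker sum. The part of either in these low values was not tested. Without SPS replicate 2, 43 of 72 tested genes were positive. Of 42 genes followed by the naming rule, 9 changed sign without it, among them Kcnmb2, Kcne5, Kcnab2, Kcnt2, Kcnj13, Kcnk1, Kcna2 and Kcnb2.

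Proteins that assemble with or sit beside potassium channels were counted from a separate list. Of 21 partners, 20 were in the table and 17 were tested. None passed the test, 9 were positive, and the median log2 fold change was 0.03. Cntn2, an adhesion protein that gathers Kv1 channels beside nodes of myelinated axons, had 136, 151 and 189 CPM in the SPS libraries and 73.5, 63.3 and 164 CPM in the Control libraries. Each SPS library was above its Control partner and the groups overlapped only through Control 3, with a log2 fold change of 0.66 ± 0.44. Abcc8, the sulfonylurea receptor that completes ATP-sensitive channels with Kcnj11, had 49.0 ± 23.8 CPM in SPS and 32.7 ± 9.12 CPM in Control (SD, 3 libraries each) and a log2 fold change of 0.58 ± 0.45. Stx1a, a release protein that also binds Kv2 channels, had 98.2, 35.4 and 62.1 CPM in the SPS libraries and 109, 286 and 77.5 CPM in the Control libraries. The highest value was Control 2, and the log2 fold change was -1.27 ± 0.60 with an unadjusted p of 0.0690. Amigo1, an adhesion protein that accompanies Kv2 channels, had 96.8 ± 37.3 CPM in SPS and 118 ± 16.1 CPM in Control and a log2 fold change of -0.28 ± 0.39.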

How the data were processed

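Per the labels' protocols, ribosomal RNA was removed from total RNA of hippocampus and stranded libraries of 3 SPS and 3 Control samples were sequenced for 150 cycles. CASAVA 1.8, HISAT2 and the human build hg19 are named in the submitters' processing notes. Which rat build and quantifier were used, and whether reads were counted by strand, is not given in the sources used here. The authors deposited FPKM values and estimated counts per gene and library. The deposited counts were not whole: 99.3% to 99.6% of values above 0 were whole multiples of 1 step per library, within 0.05 reads, and whole reads were recovered by dividing by it. Reads were tested with edgeR 4.0.16 in R 4.3.3 (TMM, filterByExpr, quasi-likelihood fit on group, Benjamini-Hochberg adjustment over 12441 genes). Alternatives used DESeq2 1.42.0, limma 3.58.1 on log2(FPKM + 1) at a mean of at least 0.5 FPKM, other scalings and filters, and left-out libraries. Pair and number differences used log2 CPM with a prior count of 2. The SE was the absolute log2 fold change over the square root of F. The fits were also run on simulated data drawn without any effect of the replicate number. That run does not cover the number differences seen in these libraries.

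Deviations from group means correlated at 0.41, 0.37 and 0.67 between libraries numbered 1, 2 and 3, each over the limit of 0.1. Pairs by number were therefore described and used as a block in an alternative fit, while the main fit was on group alone. Among unlike numbers, SPS 2 and Control 1 also passed the limit, at 0.16, and the rest were negative. The pairing rests on the data, as the labels do not say what a number shares. No libraries were counted as duplicates: the chi-square per degree of freedom between libraries was at least 7.22.

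Members, lists and the naming rule were chosen with earlier results of these data known. Named genes were the 2 of highest mean FPKM in each family, the 8 higher and the 8 lower in SPS with the smallest p at a mean CPM of at least 1, those whose groups did not overlap, 9 with known expression in glia, choroid plexus or vessels, and 4 partners. Others are named in lists. Values of 4 tested genes are not reported here one by one. The spans of 8 members overlap another gene, where reads may be shared. The floor of 3 reads covers counting error only, while the SE and SD also hold the spread between libraries.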

Additional observations from a re-analysis of the deposited data

How the results depend on the processing

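In none of the 19 alternatives was a potassium channel gene called, and the smallest adjusted p was 0.967, with the replicate block, where the median log2 fold change was -0.12. Unadjusted p-values under 0.05 were reached by 4 genes with the replicate block, 1 with DESeq2 and 3 without Control replicate 3, and 0 in the others. For all genes the unadjusted count ran between 11 and 230. The median lay between -0.45 and 0.29 when single libraries were left out, and was 0.06 without both libraries numbered 2, -0.01 without both numbered 3 and -0.15 without both numbered 1; the last 2 choices were made after seeing the data. Of 42 named genes followed, 13 kept their sign in every alternative that could be fitted and 29 did not, with 75 sign changes in 797 values, among them 9 without SPS 2, 14 without SPS 3, 13 without Control 2, 8 without Control 1 and 7 without Control 3. Of all values, 7 moved by more than the spread between replicates: Kcnip3 (0.04 without Control 2), Kcnma1 (1.90), Kcna1 (2.08) and Kcnq3 (1.71) without Control 3, Kcnj13 (-2.00 without SPS 2), Kcnh2 (-0.12 without both numbered 2) and Kcnd1 (0.54 without both numbered 3). The block changed no call. In SPS 2, the library of least depth, levels up to 0.694 CPM, that of 3 reads, could not be told from 0.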

Other observations

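Of the 15 rows with reads that did not pass the expression filter, Kcnq1, Kcnk15 and Kcnk5 had their highest level in SPS 2. The rest of the 15 had no read there, and 25.4% of all genes tested were highest in SPS 2. The named genes were chosen after their values were seen. Kcnq1, a channel of heart and epithelia, had 0.0907, 14.8 and 0.718 CPM in the SPS libraries and 0.175, 0 and 0.660 CPM in the Control libraries. Kcnk15, a K2P gene, had 0.181, 6.48 and 1.26 CPM in the SPS libraries and 0.350, 0 and 0.440 CPM in the Control libraries. Kcnk5, an acid-sensitive K2P channel of epithelia, had 1.09, 8.57 and 1.26 CPM in the SPS libraries and 0.263, 4.44 and 0.220 CPM in the Control libraries. SPS 2 was the highest library for each, and choroid plexus markers were highest there too, at 34185 CPM. Kcne1, a partner of Kcnq1, had 0 reads in all 6 libraries. The part of choroid plexus RNA in these levels was not tested.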
